A study of Mus musculus and Homo sapiens with 10 samples.

Results

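The subfamilies described here are those that the mouse repeat annotation places in the ERVL or ERVL-MaLR family of LTR elements. They were chosen by the family name alone, without their values, and number 218 of the 1196 repeat subfamilies in the mouse table, with 110 in ERVL and 108 in ERVL-MaLR. By the start of their names they fall into 8 MERVL and MT2 subfamilies, 20 MT, 29 ORR1, 69 ML (MLT1 and MLT2, with no MST in the table) and 92 others, such as RMER and LTR subfamilies. RNA-seq was done on E14, an established mouse embryonic stem cell (mESC) line, in 8 libraries. The 4 control libraries came from untreated cultures, and the 4 vitC libraries from cultures given vitamin C (vitC) at 100 µg/ml for 24 h. All of the cultures were grown in 2i, a serum-free medium that held LIF and the inhibitors PD-035901 and CHIR-99021. Replicate number and culture label each matched between 1 control and 1 vitC culture, which gave 4 culture pairs, and the question was whether vitC alters the RNA of these elements. All libraries were of 1 cell line, and the labels do not say whether the differently labelled cultures were grown independently, so p-values measure only the spread between these libraries.

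ERVL elements are endogenous retroviruses without an envelope gene, and MaLRs are their non-autonomous relatives, which lack the genes needed to copy themselves. A subfamily named with -int is the internal part of the element, and the one without it is usually the long terminal repeat (LTR), which carries the promoter and is found in the genome mostly as a solitary copy. MERVL, the youngest mouse ERVL, has MT2_Mm as its LTR, and its RNA is a hallmark of the 2-cell embryo and of a rare 2-cell-like state in mESC cultures. MT and ORR1 are MaLRs of rodents whose LTRs drive many transcripts in oocytes and early embryos, while MLT subfamilies are older and shared with other mammals. In mESCs, MERVL is held down by histone-modifying enzymes such as KDM1A and G9a and by chromatin assembly factors, and turned on by the transcription factor DUX.

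The values are expected counts, in which reads that map to several copies were shared among them, and they are given in CPM, the usual depth-scaled unit, after scaling by edgeR's TMM method. Per library, 2321035 to 5124928 counts were assigned to all subfamilies, of which rRNA repeats took 42.0% to 63.1%. The 218 ERVL and MaLR subfamilies held 10.1% to 10.5% of the counts of LINE, SINE, LTR and DNA elements. This share was 10.3% ± 0.179 in control and 10.3% ± 0.148 in vitC libraries (SD, n = 4 each), a difference smaller than the spread between libraries. By pair, the summed CPM of the 218 changed by -0.014, -0.017, -0.022 and -0.010 on the log2 scale in replicates 1 to 4. This small fall in every pair was not tested. In bulk RNA, a change in the number of cells that transcribe an element and a change in the RNA per cell cannot be told apart. Of the 218, 163 had enough counts to be tested and 55 did not, with 5 of them at 0 in every library. The untested ones were 20 ML, 1 ORR1 and 34 other subfamilies, and none had more than 20.2 counts in a library.

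VitC was compared with control by edgeR's quasi-likelihood test without a term for the pair, and p-values were adjusted over all 902 subfamilies tested. At an adjusted p of 0.05, 0 of the 163 tested ERVL and MaLR subfamilies were higher and 0 were lower, against a background of 0.887% higher and 0% lower among the 902. DESeq2, also without a term for the pair, called 0 of them. At an unadjusted p of 0.05, edgeR gave 4 higher and 5 lower members, against 8.54% and 2.77% of all tested subfamilies. With the replicate number as a block, which takes out what the cultures of a pair share, 2 members were higher (ORR1A0-int and ORR1A1-int) and 0 lower, against 4.32% and 0.333% of the 902. The unadjusted counts in that fit were 6 higher and 7 lower, against 11% and 7.43%.

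The median log2 fold change was -0.0091 over the 163 members and -0.0071 over all 902 subfamilies. Of the members, 87 (53.4%) lay within 0.1 of 0 on the log2 scale, as did 43.7% of all subfamilies. A difference of 0.5 or more was found for 1 of the 163 members, against 67 of all 902 subfamilies. All 8 MERVL and MT2 members and 18 of 20 MT members lay within 0.1, compared with 19 of 28 ORR1, 23 of 49 ML and 19 of 58 other members. Group medians ranged from -0.024 in MT to 0.013 in ML. The wider groups also had the larger errors: the median standard error with the block was 0.048 for MT and 0.19 for the other subfamilies. With the block, 14 members had a log2 fold change over 0.3 in size. For 72 of the 163, the 95% interval of that fit lay within 0.3 of 0, among them 18 of 49 ML and 8 of 58 other members. The shares of all subfamilies for these counts with the block are not given here. By direction, 13 tested members were higher with vitC in all 4 pairs and 18 were lower in all 4, where 12.9% and 13.1% of all tested subfamilies were.

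**Figure D1:**
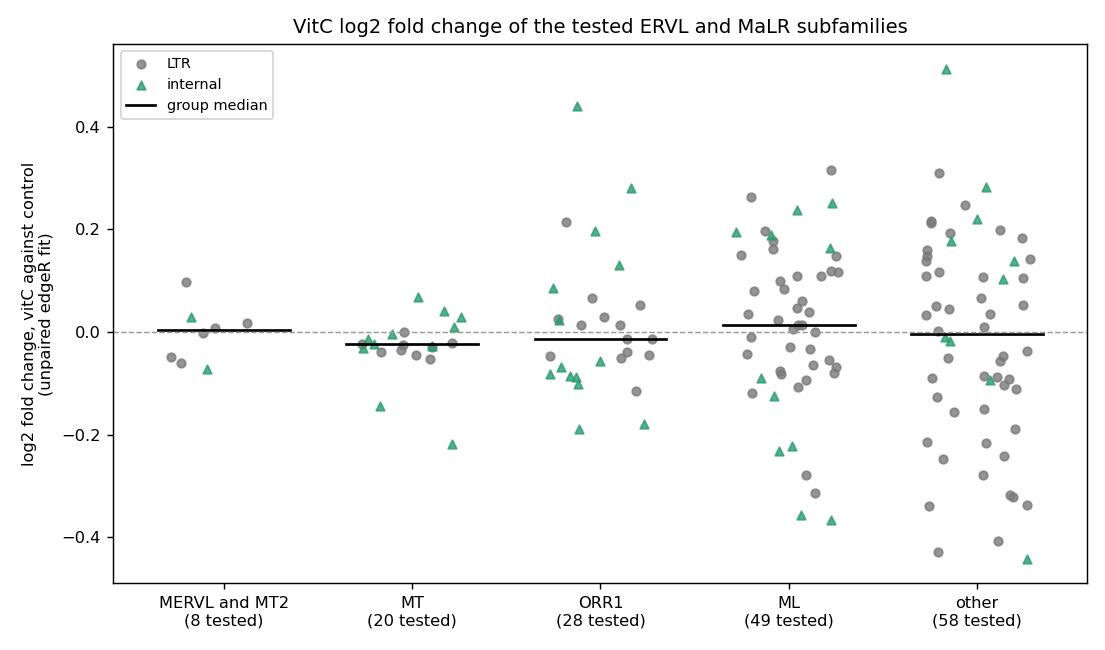
Each point is 1 of the 163 tested subfamilies, placed by its group on the x axis and by its log2 fold change with vitC (unpaired edgeR fit) on the y axis, with circles for LTRs, triangles for internal parts and a black line for the group median. The MERVL and MT2 points lie between -0.072 and 0.097, whereas the other group runs from -0.44 to 0.51.

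MERVL-int, the internal part that encodes the retroviral proteins of MERVL, did not differ between the groups beyond their spread. It was annotated in 2600 copies. It stood at 827, 739, 923 and 998 CPM in control replicates 1 to 4 and at 892, 753, 921 and 995 CPM in the vitC libraries of the same numbers. The groups overlapped fully, and replicate 2 was the lowest and replicate 4 the highest in both. The means were 872 ± 113 and 890.3 ± 101 CPM (SD, n = 4), a log2 fold change of 0.030 with a standard error (SE) of 0.11 (edgeR adjusted p = 0.931). With the replicate block the 95% interval -0.066 to 0.13 on the log2 scale contained 0. On uniquely mapped counts, 17.1% of the total, the log2 fold change was -0.11 (SE 0.11, edgeR adjusted p = 0.830).

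MT2_Mm, the LTR of MERVL with 2667 copies, was at similar values in both conditions. Control libraries held 372, 379.5, 398 and 457 CPM and vitC libraries 386, 333, 399 and 423 CPM, with 2 pairs higher and 2 lower (log2 fold change -0.061 ± 0.088 SE, edgeR adjusted p = 0.807). MERVL_2A-int, a second internal part, was at 571, 558, 533 and 552 CPM in control and 558, 492, 519 and 539 CPM in vitC libraries. It was lower in all 4 pairs, most in the second, yet its log2 fold change of -0.072 was not past the threshold (edgeR adjusted p = 0.679, and 0.462 with the block).

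The ratio of MERVL-int to MT2_Mm shows whether the internal part moves apart from its LTR. On the log2 scale it was 1.15, 0.96, 1.21 and 1.13 in control replicates 1 to 4. In vitC libraries it was 1.21, 1.18, 1.21 and 1.23. The vitC values were close together and the control values wider, with control replicate 2 lowest and control replicate 3 inside the vitC range. The difference of 0.092 was not past the threshold (two-sided exact permutation test, 70 labellings, p = 0.114). Without control replicate 3 it was 0.13 (exact permutation p = 0.0286), and without control replicate 2 it was 0.042 (exact permutation p = 0.200).

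The other MT2 LTRs belong to older ERVLs. MT2C_Mm was at 112, 120.3, 132 and 131 CPM in control and 121, 119, 145 and 147 CPM in vitC libraries, the largest difference in the group (log2 fold change 0.097 ± 0.091 SE, edgeR adjusted p = 0.763). Replicates 3 and 4 were above replicates 1 and 2 in both conditions. MT2A (0.0083), MT2B (-0.0021), MT2B1 (0.017) and MT2B2 (-0.049) had log2 fold changes near 0, with adjusted p between 0.750 and 0.997 (edgeR). For all 8 members of the group, the 95% interval with the block lay within 0.3 of 0 on the log2 scale. The plot of the 8 subfamilies shows their values in every library.

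**Figure D2:**
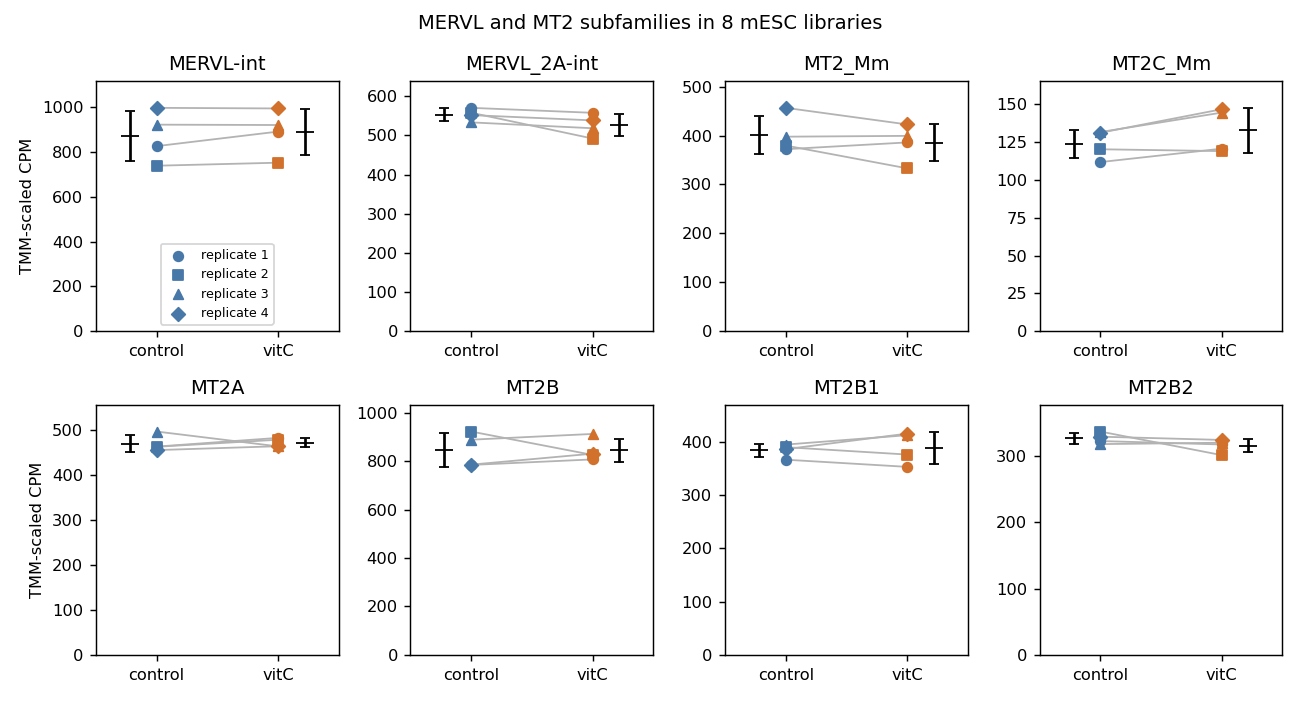
Each panel shows 1 MERVL or MT2 subfamily in TMM-scaled CPM (y axis, from 0), with control and vitC libraries on the x axis, a marker for each replicate number, grey lines joining the pairs, and black bars for the mean and SD of 4 libraries. Control and vitC points overlap in every panel, as for MERVL-int at 739 to 998 CPM in control and 753 to 995 CPM in vitC libraries.

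Among the 20 MT subfamilies, MaLRs whose LTRs are well known as oocyte promoters, 0 were past the threshold in either edgeR fit. Of all 902 subfamilies, 0.887% were higher and 0% lower without the block, and 4.32% and 0.333% with it. At an unadjusted p of 0.05, 0 MT members were higher and 0 lower without the block, against 8.54% and 2.77%. With it, 0 were higher and 1 lower, against 11% and 7.43%. The log2 fold changes of the MT subfamilies ran from -0.22 (MTE2a-int, named after its value was seen) to 0.069. All 9 MT LTRs were at or just below 0. MTD, with 51544 copies, was at 2385, 2371, 2529 and 2364 CPM in control and 2294, 2400.0, 2346 and 2349 CPM in vitC libraries, where control replicate 3 stood above the other 7 libraries (log2 fold change -0.039 ± 0.052 SE, edgeR adjusted p = 0.798). MTC, an LTR that supplies the oocyte promoter of *Dicer1* in mice, was at 1494 ± 29.3 CPM in control and 1463 ± 43.0 CPM in vitC libraries (SD, n = 4 each, log2 fold change -0.030 ± 0.049 SE, edgeR adjusted p = 0.818). MTA_Mm-int, the internal part of the youngest MT, was at 1431 ± 156 and 1408 ± 189.9 CPM (SD, n = 4, log2 fold change -0.023 ± 0.11 SE, edgeR adjusted p = 0.952). Its reads were the hardest of these to place, with 2.53% uniquely mapped against 19.7% for its LTR MTA_Mm, whose log2 fold change was -0.035.

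The ORR1 group held both members that the blocked fit called, 2 of 28 tested, against 4.32% of all 902 subfamilies higher with the block. At an unadjusted p of 0.05 (edgeR), 3 were higher and 2 lower without the block, against 8.54% and 2.77%. With it, 3 were higher and 3 lower, against 11% and 7.43%. ORR1A0-int, the internal part of a young ORR1 with 456 copies, was at 412, 377, 281 and 352 CPM in control replicates 1 to 4. In the vitC libraries it was at 524, 514, 397 and 494 CPM. It was higher in each of the 4 pairs, by 0.35, 0.45, 0.50 and 0.49 on the log2 scale, although the lowest vitC library (replicate 3) lay below the highest control library (replicate 1). The unpaired log2 fold change was 0.44 (SE 0.12, edgeR adjusted p = 0.177). With the replicate block, the standard error fell to 0.046 and the change was past the threshold (edgeR adjusted p = 0.000889). This was a rise of 1.36-fold (95% interval 1.26 to 1.46). It stayed past the threshold in the blocked fit without any 1 of the 4 pairs (edgeR adjusted p from 0.000987 to 0.0174) and with DESeq2 and the block (adjusted p = 2.05e-05).

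Few of its reads could be placed uniquely, and these did not show the rise. Uniquely mapped counts of ORR1A0-int were 25, 27, 11 and 29 in control and 29, 28, 13 and 22 in vitC libraries, 1.78% of the total. The log2 fold change on them was 0.011 (SE 0.26, edgeR adjusted p = 0.997, 95% interval -0.55 to 0.58). That interval holds both 0 and the value from all counts, so the unique counts could not tell a rise of that size from no change. The called rise therefore rests on reads shared among copies.

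Its LTR, ORR1A0 (2133 copies), was at 311, 261, 276 and 294 CPM in control and 327, 339, 328 and 331 CPM in vitC libraries. Every vitC library was above every control library, and the vitC values lay closer together than the control values. The log2 fold change of 0.21 (SE 0.058) was not past the threshold (edgeR adjusted p = 0.156, and 0.0814 with the block). Uniquely mapped counts, 16.7% of its total, went the same way, at 177 ± 25.5 CPM in control and 229.8 ± 7.56 CPM with vitC (SD, n = 4 each), scaled on unique counts (log2 fold change 0.38, edgeR adjusted p = 0.427). The paper lists ORR1A0-int among its changed repeats, from these same data. The ratio of ORR1A0-int to its LTR was tested for that reason, and so was not chosen independently of the rise. The log2 ratio of ORR1A0-int to ORR1A0 was 0.40, 0.53, 0.023 and 0.26 in control and 0.68, 0.60, 0.27 and 0.57 in vitC libraries. It was higher in all 4 pairs, by 0.23 on average, which was within the spread between libraries (two-sided exact permutation test, 70 labellings, p = 0.143). Flipping the signs of the 4 paired differences gave an exact p of 0.125, which is the lowest value that so few pairs can reach. Without control replicate 3 the difference was 0.13, and on uniquely mapped counts it turned to -0.32 (exact permutation p = 0.514).

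ORR1A1-int, the next internal part in the naming order with 859 copies, was at 201, 173, 158 and 152 CPM in control and 229.9, 234, 176 and 188 CPM in vitC libraries. Replicates 1 and 2 were above replicates 3 and 4 within each condition, so the groups overlapped while every pair rose. Its log2 fold change of 0.28 was past the threshold with the block (SE 0.059, edgeR adjusted p = 0.0402) and not without it (SE 0.12, edgeR adjusted p = 0.403). In the blocked fit the call was lost without pair 1, 2 or 4 (edgeR adjusted p = 0.0671, 0.138 and 0.177) and kept without pair 3 (adjusted p = 0.0498). Its uniquely mapped counts, 9.92% of the total, did not show the rise. The log2 fold change on them was -0.11 (SE 0.15, edgeR adjusted p = 0.871), below 0 by less than its standard error. The LTR ORR1A1 was at 207 ± 9.90 and 214 ± 4.51 CPM (SD, n = 4), with 4 of 4 pairs higher and a change of 0.053 on the log2 scale (edgeR adjusted p = 0.763).

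**Figure D3:**
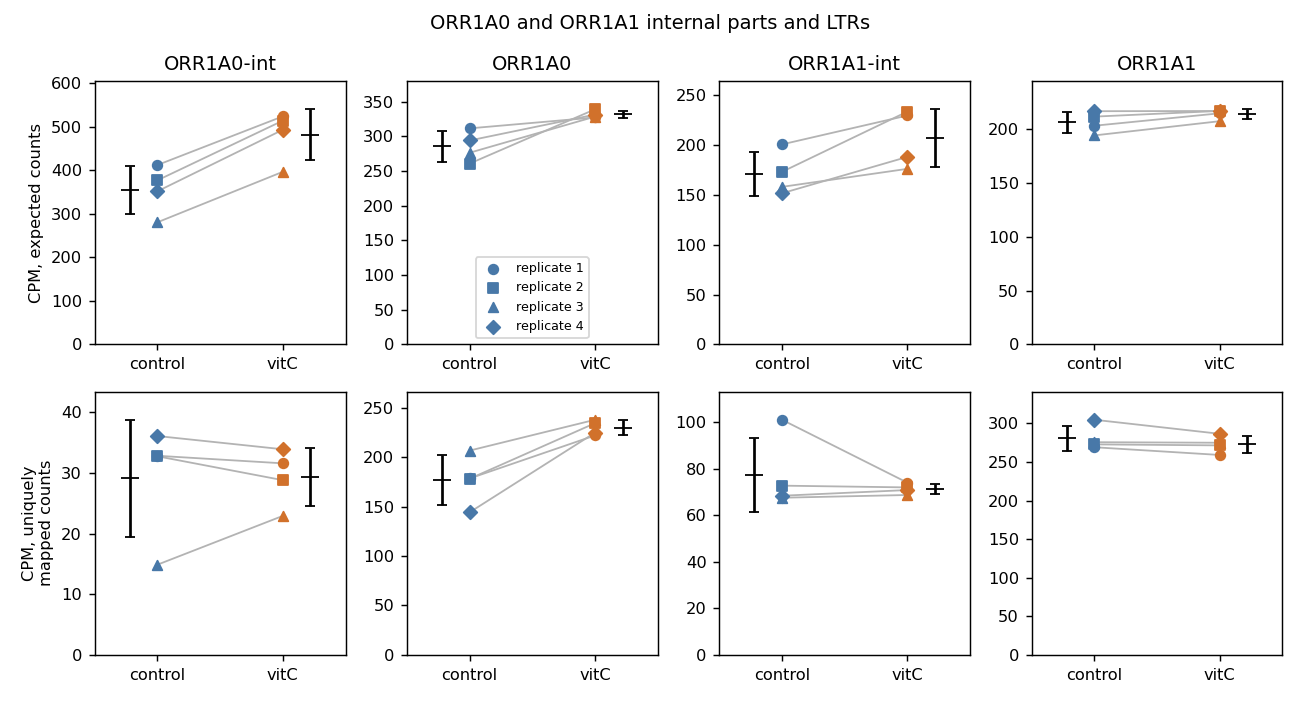
Each column is 1 subfamily, with CPM from expected counts in the upper row and CPM from uniquely mapped counts in the lower row (y axes from 0), control and vitC libraries on the x axis, grey lines joining pairs, and black bars for the mean and SD of 4 libraries. The upper row rises in each of the 4 pairs for all of the subfamilies shown, while the lower row rises in each of the 4 pairs for ORR1A0 and not for ORR1A0-int, whose unique counts are 11 to 29 per library.

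The remaining ORR1 subfamilies went in both directions, and none passed the threshold in either fit. ORR1A2, with 14843 copies, was at 842, 870.0, 871 and 831 CPM in control and 869, 910.2, 835 and 858 CPM in vitC libraries (log2 fold change 0.025 ± 0.048 SE, edgeR adjusted p = 0.846). ORR1D1 (21507 copies) was at 1065, 1051, 1054 and 1077 CPM in control and 936, 1007, 986 and 993 CPM in vitC libraries, where all vitC libraries lay below all control libraries (log2 fold change -0.11 ± 0.047 SE, edgeR adjusted p = 0.403). ORR1E was at 956 ± 18.6 and 929 ± 17.6 CPM (SD, n = 4), lower in all 4 pairs but with overlapping groups (log2 fold change -0.040 ± 0.045 SE, edgeR adjusted p = 0.777). Across the group, 6 of 28 tested members (21.4%) were higher in all 4 pairs and 5 (17.9%) were lower in all 4. The shares of all 902 subfamilies were 12.9% and 13.1%. Of the 13 internal parts tested together with an LTR of the same name, 9 had log2 fold changes of the same sign as that LTR, as did 17 of the 33 such pairs over all groups.

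Internal parts of ORR1 were compared along their names. Those from ORR1A0 to ORR1A4 had log2 fold changes of 0.44, 0.28, 0.023, 0.20 and -0.18, and those of ORR1B1, ORR1B2, ORR1C1, ORR1C2, ORR1D1, ORR1D2 and ORR1E lay between -0.19 and -0.057. ORR1D-int (0.13) and ORR1F-int (0.085) were above 0, and ORR1G-int had too few counts to be tested. Other than ORR1A0-int and ORR1A1-int, these internal parts were named after their values were seen. The value of ORR1A3-int was set by 1 library, vitC replicate 3, which held 197 CPM against 118 to 131 in the other 7, and without it the log2 fold change was 0.013. ORR1B1-int was below its controls in every vitC library, at 322, 324, 312 and 305 CPM in control and 259, 281, 274 and 294 CPM with vitC (log2 fold change -0.19 ± 0.051 SE, edgeR adjusted p = 0.152).

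ML subfamilies are old elements, and 0 of the 49 tested were past the threshold in either edgeR fit. At an unadjusted p of 0.05, 0 were higher and 2 lower without the block, against 8.54% and 2.77% of the 902 subfamilies. With the block, 2 were higher and 2 lower, against 11% and 7.43%. The 3 with the most counts were MLT1A1, MLT1B and MLT1D, all LTRs of ancient MaLRs. MLT1A1 was at 307, 353, 353 and 345 CPM in control and 299, 296, 316 and 341 CPM in vitC libraries, lower in all 4 pairs (log2 fold change -0.12 ± 0.065 SE, edgeR adjusted p = 0.516). MLT1B and MLT1D had log2 fold changes of -0.034 and -0.077 (edgeR adjusted p = 0.805 and 0.604). MLT2B1, an LTR of the ERVL family with 1637 copies, was higher in every pair, at 23.3, 25.2, 34.5 and 29.6 CPM in control and 30.5, 30.0, 43.0 and 37.5 CPM with vitC. Replicate 3 was highest in both conditions, and the groups overlapped (log2 fold change 0.31 ± 0.16 SE, edgeR adjusted p = 0.493, and adjusted p = 0.104 with the block). MLT1A0-int, with 206 copies, was lower in every pair on few counts, from 6.12, 5.79, 5.56 and 8.51 CPM in control to 4.43, 4.67, 4.80 and 6.46 CPM with vitC (log2 fold change -0.37 ± 0.21 SE, edgeR adjusted p = 0.543, and -0.21 without control replicate 4), while its LTR MLT1A0 had a log2 fold change of 0.046. MLT1G had every vitC library above every control library, at 20.2, 22.1, 18.3 and 21.9 CPM in control and 24.1, 28.8, 22.1 and 23.0 CPM with vitC (log2 fold change 0.26 ± 0.12 SE, edgeR adjusted p = 0.442).

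Among the other subfamilies, 0 of 58 tested were past the threshold in either edgeR fit. At an unadjusted p of 0.05, each fit gave 1 higher and 1 lower. The shares of all 902 subfamilies were 8.54% and 2.77% without the block and 11% and 7.43% with it. The members were ERV3-16A3_I-int and HERVL40-int, internal parts of old ERVLs, which had the largest rise and the largest fall of all 163 tested members. HERVL40-int (204 copies) was at 23.6, 21.6, 21.6 and 21.3 CPM in control and 17.5, 14.2, 17.6 and 16.2 CPM in vitC libraries. Each vitC library was below each control library, and uniquely mapped counts moved the same way (log2 fold change -0.38 on unique counts and -0.44 on all, SE 0.11, edgeR adjusted p = 0.136, and 0.0940 with the block). ERV3-16A3_I-int (908 copies) was at 4.93, 6.53, 7.47 and 5.87 CPM in control and 10.5, 8.85, 7.78 and 8.02 CPM with vitC, on 15.7 to 35.7 counts per library (log2 fold change 0.51 ± 0.18 SE, edgeR adjusted p = 0.305). LTR33B was at 8.16, 7.80, 9.33 and 7.45 CPM in control and 7.17, 4.22, 7.21 and 6.23 CPM with vitC, where the vitC library of replicate 2 lay lowest (log2 fold change -0.43 ± 0.21 SE, edgeR adjusted p = 0.454, and -0.25 without that library).

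RMER15, RMER10A and MER21B had the most counts of the other subfamilies. RMER15, with 18077 copies, was at 1129, 1250.0, 1292 and 1336 CPM in control and 1179, 1156, 1314 and 1392 CPM in vitC libraries (log2 fold change 0.0093 ± 0.079 SE, edgeR adjusted p = 0.972). RMER10A and MER21B had log2 fold changes of -0.090 and -0.091 (edgeR adjusted p = 0.776 and 0.583). Over all groups, 3 tested members had every vitC library above every control library (ERV3-16A3_I-int, MLT1G and ORR1A0) and 4 had every one below (HERVL40-int, LTR33B, ORR1B1-int and ORR1D1), where 4.99% and 2.11% of the 902 subfamilies did. MLT1G and ORR1B1-int were singled out after their values were seen. The interval plot shows how far each named subfamily could have moved.

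**Figure D4:**
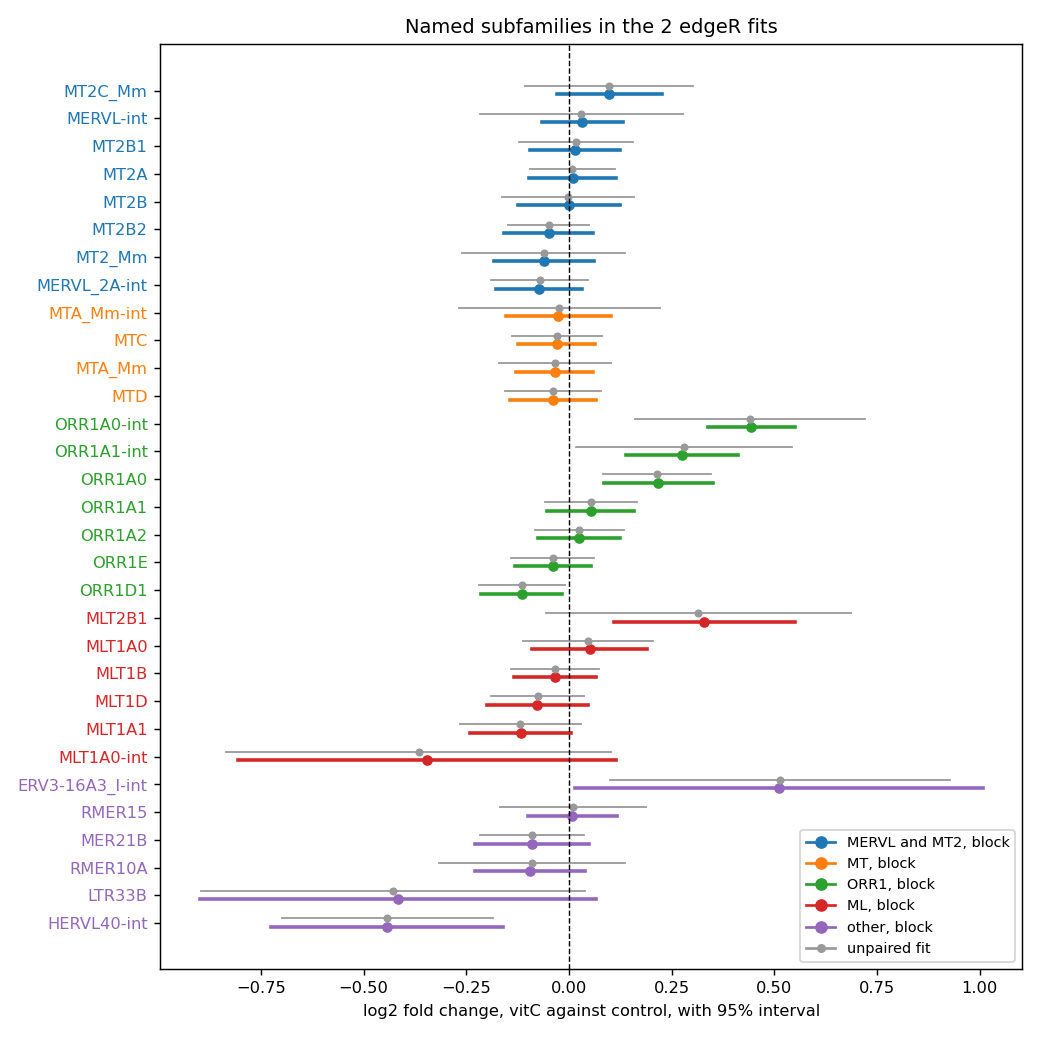
The x axis is the log2 fold change with vitC and the y axis lists the named subfamilies, coloured by group. Coloured points and lines are the edgeR estimate and 95% interval with the replicate block, and grey ones are those of the unpaired fit. The block narrows the ORR1A0-int interval from 0.16 to 0.72 in the unpaired fit to 0.34 to 0.55, and that of MERVL-int contains 0 in both.

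Replicates 1 and 2 came from cultures labelled VC10 and VC11 and replicates 3 and 4 from those labelled VC35B and VC35C, and the members were also compared between these culture sets in 1 fit with vitC as a term. That fit counts the control and vitC libraries of a culture as separate replicates, although each set holds 2 cultures and libraries of the same number deviated together. At an adjusted p of 0.05 (edgeR), 8 of 163 were past the threshold, which is 4.91%, against 5.99% of the 902 subfamilies, with 4 higher and 4 lower in replicates 3 and 4. With the counts of each culture added up, 2 cultures against 2, edgeR called 0 of 177 members, against 2.13% of 987 subfamilies (19 at an unadjusted p of 0.05, against 17.5%), so the 8 values are given as a description. In the fit over 8 libraries, the log2 difference of replicates 3 and 4 from replicates 1 and 2 was 0.60 for LTR40b, 0.41 for LTR41, 0.40 for MLT2B1 and 0.23 for MT2C_Mm. It was -0.36 for MLT1E2, -0.31 for ORR1A1-int, -0.29 for RMER10B and -0.26 for RMER10A. The aligned library size moved the median difference of all subfamilies from 0.0028 to -0.23, and with that common shift 0 members were higher and 14 lower. On uniquely mapped counts 0 members differed, and with DESeq2 1 was higher and 2 were lower. The shares of all subfamilies with the aligned library size, unique counts and DESeq2 are not given here. These counts are therefore not read as a result about the members. The vitC change itself differed between the sets for 0 members (edgeR interaction term, against 0% of all subfamilies, with 2 at an unadjusted p of 0.05, against 4.1%). For ORR1A0-int the log2 fold change was 0.41 in replicates 1 and 2 (edgeR adjusted p = 0.0419) and 0.50 in replicates 3 and 4 (adjusted p = 0.446), an interaction of 0.098 (adjusted p = 0.991).

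**Figure D5:**
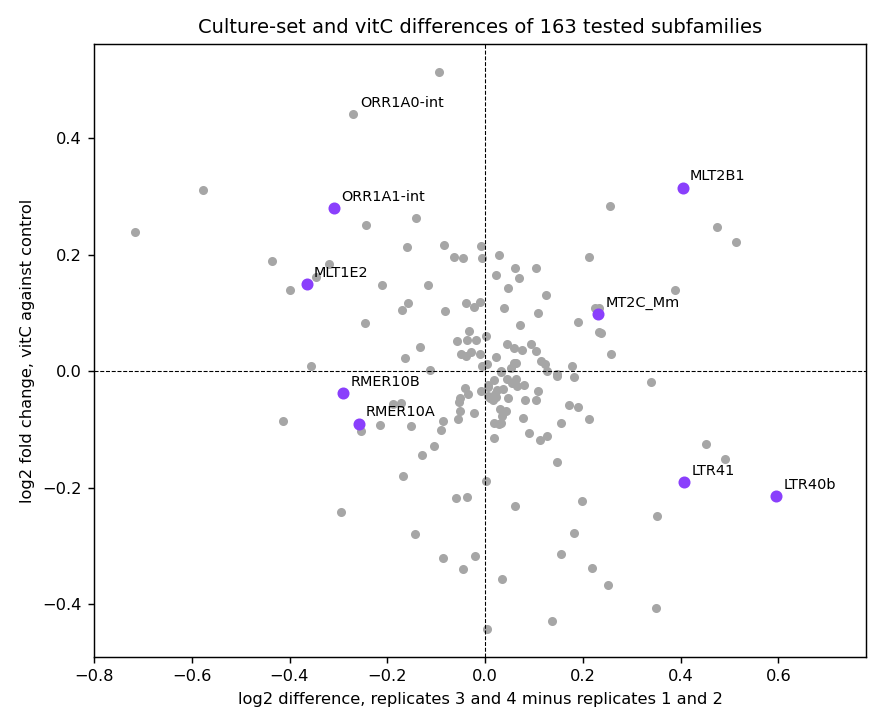
Each point is 1 of the 163 tested subfamilies, with the log2 difference between replicates 3 and 4 and replicates 1 and 2 on the x axis and the log2 fold change with vitC on the y axis. Purple, labelled points are the 8 past the threshold in the fit over 8 libraries, none of them with counts added up per culture, from -0.36 for MLT1E2 to 0.60 for LTR40b, and ORR1A0-int is labelled for comparison.

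Internal parts and LTRs differed most in how well their reads could be placed. Uniquely mapped counts made up 13.2% of the counts of internal parts and 39.5% of those of LTRs. Of the 163 tested members, 139 had enough uniquely mapped counts to be tested on them, and 0 were called in that fit with or without the block, against 0% without it and 0.404% higher and 0.135% lower with it (edgeR, 4 higher and 4 lower at an unadjusted p of 0.05 without the block, against 4.18% and 3.23% of the 742 tested, and 5 higher and 4 lower with it, against 6.2% and 6.47%). Beside the ERVL and MaLR subfamilies, 26 of 253 tested ERVK subfamilies and 7 of 92 tested ERV1 subfamilies were higher with the block (0 and 1 lower), against 4.32% higher and 0.333% lower of all 902. In the unpaired fit 6 and 0 of them were higher and 0 lower, with median log2 fold changes of 0.096 and 0.069. The difference between the families was not tested.

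Genes that accompany MERVL in 2-cell-like cells were nearly silent in all libraries. Of 42 listed 2-cell genes, 31 were in the gene table, 15 of these had no read in any library and 9 were tested. Reads summed over the list, as CPM of all gene reads, were 6.49, 2.12, 3.12 and 2.17 in control and 18.1, 4.98, 7.45 and 5.69 in vitC libraries. Each vitC library was above its own control, replicate 1 was the highest in both conditions, and no single gene had more than 15 reads. None of the 9 was past the threshold in the unpaired limma fit (against 0.321% of 14631 genes called higher and 0.0205% lower, while an unadjusted p of 0.05 gave 2 higher and 0 lower, against 4.48% and 3.18%), and with the block 1 was, *Zscan4d*, where 6.36% of genes were higher and 4.44% lower. *Zscan4d*, a 2-cell gene of the zinc finger and SCAN family, had 1, 1, 0 and 0 reads in control and 6, 4, 3 and 1 in vitC libraries (difference 0.24 on the variance-stabilised scale, limma adjusted p = 0.0331 with the block and 0.366 without). *Zscan4c* had 2, 0, 0 and 2 reads in control and 10, 2, 1 and 2 in vitC libraries (limma adjusted p = 0.0780 with the block). The 5 listed genes with the highest values, Gm5662, Gm2016, Gm2022, BB287469 and Gm8300, had differences of 0.12 to 0.17 (limma adjusted p from 0.550 to 0.784). At such low counts the variance-stabilised scale compresses differences, so these values are not log2 fold changes. The *Zscan4* genes are near-identical copies that can share reads, so which of them the reads came from is uncertain. On recovered reads, edgeR's filter left no 2-cell gene with enough reads to test.

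Of the 4 listed activators of MERVL, 3 were tested, and *Dux*, listed as *Duxf3*, was not in the gene table. None of the 3 passed the threshold in either limma fit (0 at an unadjusted p of 0.05 in the unpaired fit). *Dppa2*, which with *Dppa4* acts upstream of *Dux*, had 131, 116, 121 and 216 reads in control and 124, 140, 83 and 112 in vitC libraries (limma difference -0.039, adjusted p = 0.955). *Dppa4* differed by -0.011 (adjusted p = 0.993) and *Gata2* by -0.071 (adjusted p = 0.941), the last on 0 to 11 reads, where the variance-stabilised scale compresses differences.

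Of 24 genes known to restrain MERVL or other LTR elements, 0 were past the threshold in the unpaired limma fit (0 at an unadjusted p of 0.05), and with the block 2 were higher and 2 were lower, against 6.36% higher and 4.44% lower of all genes tested. *Setdb1*, the H3K9 methyltransferase of the TRIM28 pathway, rose by 0.23 (limma adjusted p = 0.000403 with the block, 0.783 without) and *Ehmt1*, the G9a partner, by 0.14 (0.0277 and 0.684). *Zfp42* (REX1), a repressor of ERVL elements, fell by 0.13 (0.0356 and 0.830), and *Lin28a*, an RNA-binding protein of pluripotent cells, fell by 0.11 (0.0408 and 0.909). *Trim28* (-0.0056) and *Ncl* (-0.077), a nucleolar protein that works with TRIM28, had the highest values in the list, with *Rif1* (0.095), *Uhrf1* (0.038) and *Mga* (-0.11) (limma adjusted p from 0.775 to 0.997 for these 5).

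Markers of the labelled cell type were high throughout. The 9 naive mESC markers, such as *Pou5f1*, *Nanog*, *Esrrb* and *Tfcp2l1*, summed to 5047 to 5638 reads as CPM of all gene reads. Markers of fibroblasts summed to 6.55 to 17.3, those of endoderm to 1.20 to 4.48 and those of primed or mesodermal cells to 15.15 to 25.2. None of the 4 marker lists held a gene past the threshold in the unpaired limma fit. With the block, 4 naive markers were past it, with *Tfcp2l1* higher by 0.11 (limma adjusted p = 0.0231) and *Nanog* (-0.25, adjusted p = 0.000647), *Pou5f1* (-0.12, adjusted p = 0.0221) and *Zfp42*, also on the list of repressors, lower, against the same 6.36% and 4.44% of all genes. The other 3 lists had 0 genes past it in limma. In edgeR on recovered reads with the block, the fibroblast marker *Col1a2* was past it (log2 difference 0.99, edgeR adjusted p = 0.0115). *Col1a2* had 36, 15, 0 and 0 reads in control and 56, 40, 0 and 0 in vitC libraries. The part of these markers in the values of the subfamilies was not tested.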

How the data were processed

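RNA-seq reads of 8 mESC libraries were analysed. Per the labels, they were trimmed with Trim Galore, with HISAT2 and DESeq2 also listed, and the build was mm10. The methods state rRNA depletion, whereas the labels name depletion or mRNA isolation. The authors counted repeats with SQuIRE and deposited, per subfamily, expected counts shared by expectation-maximisation and uniquely mapped counts. Gene values were deposited after a variance-stabilising transformation, which is close to log2 only at high counts. At low counts it compresses differences. Without the block, *Col1a2* differed by 0.16 on this scale and by 1.05 in log2 on recovered reads in edgeR. Inverting them gave whole reads for 100% of 116385 values (tolerance 0.01 read), tested as an alternative. Per library, 2 further columns of the repeat table (read totals and confidence) were left out, as were the human libraries.

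Expected counts were rounded and tested with edgeR 4.0.16 (TMM, filterByExpr, glmQLFit and glmQLFTest) in R 4.3.3, with Benjamini-Hochberg adjustment. Genes with reads in 4 or more libraries were tested with limma 3.58.1. DESeq2 1.42.0, which the methods name, was an alternative. Log2 ratios within a library (pseudocount 0.5 count) were compared by exact permutation, and pair differences used CPM plus 0.5. On simulated counts, edgeR found 93.8% of 194 subfamilies changed 2-fold among 889, and 98.5% with the block. Of its calls, 1.62% and 4.98% were false. The simulation gave all subfamilies 1 preset dispersion, and no tested member changed 2-fold. It therefore does not give the power for the smaller changes seen here. Replicate numbers pair the libraries: same-numbered libraries share a culture label. Deviations from the group means correlated between them at 0.230 to 0.557 over all subfamilies and 0.125 to 0.285 over the members. Libraries of different numbers were not compared, so these values do not separate what a pair shares from what a culture set shares. The block is an alternative, because the methods name none.

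Named were all MERVL and MT2 subfamilies, the 3 with the most counts per other group, members past the threshold in either fit, the 3 largest rises and falls shared by 4 pairs, LTRs of named internal parts, and for gene lists those past the threshold and the 5 highest. Members and lists were chosen with earlier results of these data known. Precision is limited by depth: 665034 to 988040 counts per library were unique. Other alternatives were other filters, the aligned library size, transposable element classes only, unique counts, each library left out, each culture set alone, a pseudocount of 5, and for genes another filter and no trend. A direction was compared between settings only where either value had an unadjusted p under 0.05.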

Additional observations from a re-analysis of the deposited data

Results flagged for a closer look

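In 3 of 76 groups of 4 libraries examined (named subfamilies, group sums and ratios), 1 library lay far from the other 3 by Dixon's criterion, which chance meets in about 1 of 20 groups. HERVL40-int was at 23.6 CPM in control replicate 1, with 21.6 CPM as the nearest of the other control libraries. MTD was at 2529 CPM in control replicate 3, with 2385 CPM as the nearest. The subfamilies outside the MERVL, MT, ORR1 and ML groups summed to 3195 CPM in control replicate 1, the lowest, with 3303 CPM as the nearest. Without control replicate 1, the log2 fold change of HERVL40-int was -0.41 (edgeR adjusted p = 0.281), and without control replicate 3 that of MTD was -0.017 (edgeR adjusted p = 0.937).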

How the results depend on the processing

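The count of 0 subfamilies called lower did not change under any alternative. The count called higher was 2 with the replicate block, 1 in replicates 1 and 2 only, and 0 in the other alternatives to the unpaired fit, each left-out library included. Combinations of the replicate block chosen after seeing the data gave 1 without replicate 1, 1 without replicate 2, 2 without replicate 3, 1 without replicate 4, 1 with DESeq2 and 2 with the aligned library size. Subfamilies that differed between the culture sets numbered 8 in the unpaired fit, 0 on uniquely mapped counts, 3 with DESeq2, 14 with the aligned library size and 0 with counts summed per culture, an alternative chosen after seeing the data. The aligned library size shifted the vitC changes of all subfamilies by 0.12 at the median, and those given under it are relative to this shift, unlike the 14. The interaction count stayed at 0, also with the replicate block. The MERVL-int to MT2_Mm difference ranged from 0.042 to 0.13 and the ORR1A0-int to ORR1A0 difference from 0.13 to 0.31 with 1 library left out. On uniquely mapped counts the second was -0.32 (exact permutation p = 0.514), on few reads of ORR1A0-int. On unique counts the ORR1A0-int log2 fold change was -0.0098 with the block, and that of ORR1A1-int was -0.11 without and -0.12 with it, none of them past the threshold. The cause was not tested. Of the listed 2-cell genes and MERVL regulators, 0 were called without the block, 5 with the block in limma and 5 with the block when recovered reads went into edgeR (*Smarcad1* in place of *Zscan4d*). The block also brought 4 naive mESC markers past the threshold, and in edgeR on recovered reads the fibroblast marker *Col1a2* as well.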
